A study of Rattus norvegicus with 48 samples.

Results

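The let-7 passenger strands are the mature miRNAs cut from the 3p arm of the let-7 hairpins. They were taken as every mature miRNA whose name starts with rno-let-7 and ends with -3p, which gave 11 of the 764 mature names in the count table. Liver RNA came from 48 male Sprague-Dawley rats and was profiled by miRNA-seq, with 1 library per rat. Rats received thioacetamide (TAA), a liver toxicant that causes fibrosis and liver tumors in rats, once daily at 4.5 (low), 15 (middle) or 45 (high) mg/kg for 3, 7, 14 or 28 days, and a control group at each time point received vehicle. The 16 groups held 3 rats each, so there were 12 treatment conditions and 12 control rats. Every library was whole liver, in which fewer cells of a type and less RNA per cell cannot be told apart. The labels give each library a number from 1 to 48 and no animal identifier, so that a p-value measures the spread between these libraries.

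A let-7 hairpin is cut by Drosha and then Dicer into a short duplex. One strand, the guide, is loaded into Argonaute and pairs through its seed with target mRNAs, and the other strand, the passenger, is usually released and degraded. In let-7 the guide is the 5p arm, a family known for promoting differentiation and for restraining growth genes such as Ras, Myc and Hmga2. The 3p arm has a different seed and would pair with different targets where it is retained. The level of a passenger strand relative to its guide reflects processing, loading and decay as well as transcription of the hairpin.

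The sequences are shown because the 3p arms differ from each other in seed and in base composition, while the guides share a single seed. Each line gives a mature 3p sequence from RefSeq (assembly GRCr8), 5′ to 3′, with the seed, bases 2 to 8, in capitals. A sequence was matched for 10 of the 11 names, all but rno-let-7c-1-3p.
rno-let-7d-3p: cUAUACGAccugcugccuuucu
rno-let-7b-3p: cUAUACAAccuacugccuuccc
rno-let-7e-3p: cUAUACGGccuccuagcuuucc
rno-let-7a-1-3p and rno-let-7c-2-3p: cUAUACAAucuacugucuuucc
rno-let-7f-1-3p: cUAUACAAucuauugccuucc
rno-let-7f-2-3p: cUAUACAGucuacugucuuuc
rno-let-7g-3p: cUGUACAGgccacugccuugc
rno-let-7i-3p: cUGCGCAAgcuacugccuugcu
rno-let-7a-2-3p: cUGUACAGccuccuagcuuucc
The seed UAUACAA was shared by let-7a-1-3p, let-7b-3p, let-7c-2-3p and let-7f-1-3p, and the seed UGUACAG by let-7a-2-3p and let-7g-3p. The seeds of let-7d-3p (UAUACGA), let-7e-3p (UAUACGG), let-7f-2-3p (UAUACAG) and let-7i-3p (UGCGCAA) were each held by a single member. The mature sequences of let-7a-1-3p and let-7c-2-3p were identical. Their counts were equal in 35 of 48 libraries and differed by at most 2 reads in the others, so that reads cannot be assigned to either hairpin and both names were counted as 1 sequence, called let-7a-1-3p from here on.

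All guides carried the seed GAGGUAG, as in this guide, shown with its seed in capitals.
rno-let-7d-5p: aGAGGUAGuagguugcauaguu
In the hairpin of let-7d, which lies at chr17:16322260-16322357 on the plus strand of GRCr8, the 3p arm fills bases 68 to 89 and is in capitals.
Mirlet7d: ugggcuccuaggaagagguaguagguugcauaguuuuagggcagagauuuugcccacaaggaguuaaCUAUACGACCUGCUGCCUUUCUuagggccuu
The hairpins of let-7a-1, let-7f-1 and let-7d lie beside each other within the lncRNA LOC120097935 on chromosome 17, with let-7f-1-3p at chr17:16320564-16320584. Those of let-7c-2 and let-7b lie next to each other on chromosome 7, with let-7b-3p at chr7:118684098-118684119, and that of let-7i lies elsewhere on chromosome 7 within LOC134479799. No annotated gene was found to span let-7c-2-3p or let-7b-3p, in a search that left out genes with names starting with Mir. The hairpin of let-7e lies in Spaca6, with let-7e-3p at chr1:67350288-67350309, let-7f-2 in Huwe1 on chromosome X, let-7g in the span of Wdr82 and Rpl29 on chromosome 8, and let-7a-2 in the lncRNA Lnc215 on chromosome 8. The 3p arms of let-7a-1, let-7f-1 and let-7f-2 were rich in A and U, with 36.4%, 38.1% and 38.1% G and C bases. The share was 50.0% in let-7b-3p and let-7d-3p, 54.5% in let-7e-3p, 59.1% in let-7i-3p and 61.9% in let-7g-3p.

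Library totals ranged from 4829217 to 14906217 reads in 47 of the 48 libraries. The other library, control 3-d replicate 1, held 293331 reads. At this depth 3 reads, taken as the limit of detection, correspond to 10.2 RPM (reads per 1000000 reads). Since the number of reads, and not a level of any miRNA, set this library apart, each result that uses the 3-d controls is given with it and without it. Intervals and limits of this kind cover counting error only. Levels are given as RPM of all miRNA counts in a library, and levels of different miRNAs also differ by how well each is ligated and sequenced.

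Without that library, let-7d-3p was the most abundant passenger strand, at 243 to 783 RPM with a median of 460 RPM. Its reads made up 55.9 to 76.3% of all reads of the tested 3p sequences. The order of the medians went on with let-7a-1-3p (102 RPM, range 65.8 to 141), let-7b-3p (50.2 RPM, range 37.9 to 86.0), let-7f-1-3p (33.7 RPM, range 21.7 to 49.1) and let-7f-2-3p (30.1 RPM, range 19.4 to 38.9). The lowest levels were those of let-7g-3p (7.30 RPM, range 3.83 to 17.1), let-7e-3p (5.59 RPM, range 2.87 to 10.5) and let-7i-3p (4.36 RPM, range 2.09 to 13.8). The range of let-7d-3p lay above all others. From let-7a-1-3p down, the range of each strand overlapped that of the next in the order except between let-7f-2-3p and let-7g-3p. These ranges alone thus do not separate the other neighbours. Compared within a library, let-7a-1-3p was above let-7b-3p throughout, most narrowly in middle 3-d replicate 12 (80.9 and 76.6 RPM). In contrast, let-7b-3p was below let-7f-1-3p in high 7-d replicate 26 (37.9 and 48.2 RPM).

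A filter of at least 5 RPM in at least 3 libraries was passed by 301 miRNAs, among them 9 of the 11 names, or 8 distinct sequences. The names that failed it were rno-let-7a-2-3p, with 0 to 3 reads in every library and at most 0.454 RPM, and rno-let-7c-1-3p, with 1.5 to 4.36 RPM in the 47 libraries and 0 of 293331 reads in control 3-d replicate 1, which allows up to 10.2 RPM. The level of 5 RPM was reached in 33 libraries by let-7e-3p, in 16 by let-7i-3p, in 46 by let-7g-3p and in all 48 by the others. Counts of let-7e-3p in the 47 libraries were 22 to 101 reads.

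**Figure D1:**
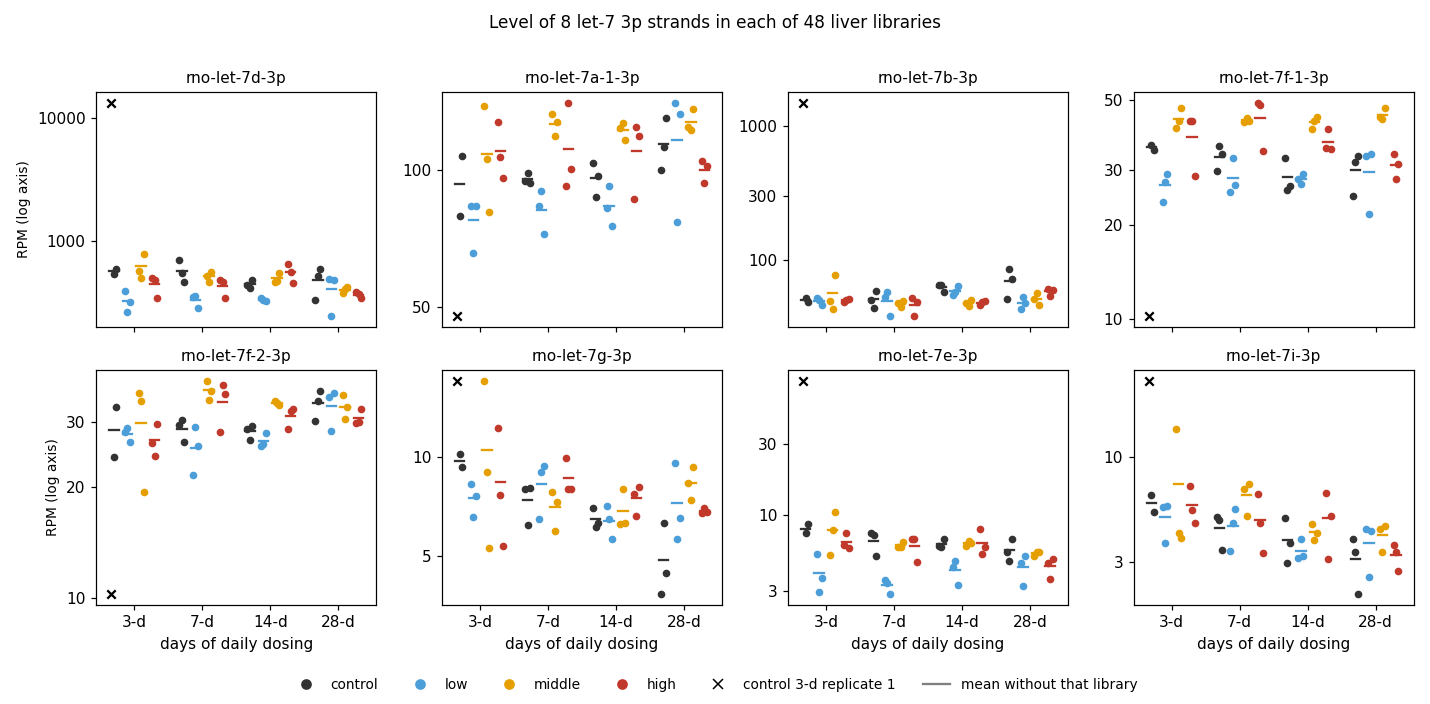
Level in RPM (log axis) of the 8 distinct let-7 3p sequences in every library, by days of dosing, with points colored by dose and a short line at each group's mean without control 3-d replicate 1, which is drawn as a cross. The cross lies at 13268 RPM for let-7d-3p and at 1507 RPM for let-7b-3p, far above every point, and below every point for let-7a-1-3p, let-7f-1-3p and let-7f-2-3p.

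In control 3-d replicate 1, 7 of the 8 passenger strands lay outside the range of the other 47 libraries, and in opposite directions, and the level of let-7g-3p lay inside it. Here let-7d-3p had 13268 RPM (3892 reads), 23.6 times the mean of the other 3-d controls, and let-7b-3p had 1507 RPM (442 reads), 30.1 times that mean. Among the 301 tested miRNAs the ratio of let-7b-3p ranked 1 and that of let-7d-3p ranked 3. The other members ranked from 20 (let-7e-3p) to 254 (let-7f-1-3p). How many of the 301 lay outside the range of the other 47 libraries was not counted. The level of let-7e-3p was 81.8 RPM (24 reads), 10.2 times the mean. The ratio was 4.05 for let-7i-3p (7 reads) and 1.75 for let-7g-3p, whose 5 reads, or 17.05 RPM, were below the 17.09 RPM of 1 middle dose liver. For let-7a-1-3p (14 reads) it was 0.512, and for let-7f-2-3p and let-7f-1-3p, with 3 reads each and thus at the limit of detection, it was 0.358 and 0.290. The 3p strands took 40.7% of all let-7 reads in this library and 0.894 to 2.79% in the other 47.

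The direction followed base composition, as the plot of G and C share against this ratio shows. The 5 sequences with at least 50.0% G and C bases were above the mean of the other 3-d controls and the 3 with at most 38.1% were below it. The level of let-7g-3p (5 reads) was still inside the range of the other 47 libraries. Few reads also stand behind let-7i-3p (7) and the let-7f strands (3 each). Among the 5 sequences with the larger shares the ratio did not grow with the share, since let-7g-3p had the largest share and the smallest ratio. Over the 270 of 301 tested miRNAs with a sequence (89.7%), the log2 ratio of this library to the other 3-d controls, with 1 RPM added, rose with the share of G and C bases (Pearson's r = 0.655, Spearman's rho = 0.658, given as a description across miRNAs of a single library). RNA quality or handling of this library cannot be read from the counts, and the part of base composition in the result was not tested.

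**Figure D2:**
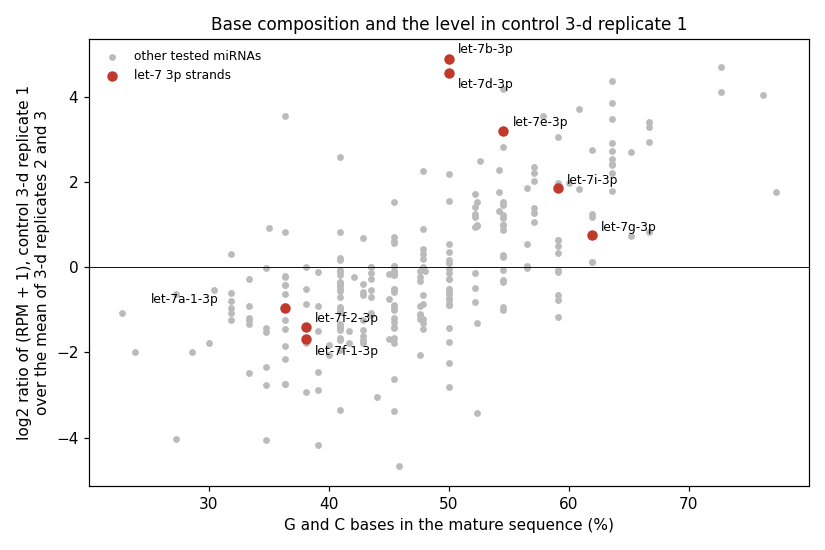
Share of G and C bases in the mature sequence (x axis, percent) against the log2 ratio of RPM + 1 in control 3-d replicate 1 over the mean of 3-d control replicates 2 and 3 (y axis), for 270 tested miRNAs (grey) with the let-7 3p strands in red. The ratios of let-7b-3p and let-7d-3p are at 4.88 and 4.56, at 50.0% G and C bases, and those of the 3 AU-rich strands are below 0.

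Markers of other cells were read beside this. The 4 red blood cell miRNAs summed to 98080 RPM in control 3-d replicate 1 and to 2786 to 6724 RPM in the other controls, and 97896 RPM of this was miR-486. The other red blood cell markers were not higher, with 130 RPM of miR-451-5p against a median of 287 RPM in the other controls and 13.6 RPM of miR-144-3p against 56.7 RPM. The 4 hepatocyte miRNAs, among them miR-122-5p, were present in all libraries and summed to 125582 RPM here and to 222703 to 254551 RPM in the other controls. The 5 leukocyte miRNAs summed to 2945 RPM against 2953 to 4491 RPM, with 1 marker at 0, the 5 stellate or smooth muscle miRNAs to 23445 against 23284 to 47438 RPM, and the 5 epithelial or bile duct miRNAs to 518 against 556 to 1394 RPM. The pancreas list summed to 938 against 248 to 467 RPM, with 2 of its 3 markers at 0. The muscle list (3 of 4 markers at 0) and the brain list (2 of 3 at 0) summed to 17 RPM each, against 2.26 to 13 and 13.2 to 24.3 RPM. The part of these cells in the levels of the passenger strands was not tested.

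The comparison at 3-d asks whether the passenger strands change early, at each dose, and its answer rested on that library. A miRNA was called when the unadjusted p-value of edgeR's quasi-likelihood F-test was below 0.05 and the fold change above 1.5, the study's own thresholds, and Benjamini-Hochberg adjusted p-values over the 301 miRNAs are given beside it. With all 3 controls, let-7d-3p was called lower at low, middle and high dose and let-7b-3p at middle and high dose, with log2 fold changes of -2.77 to -3.53 and adjusted p-values of 0.245 to 0.856. Of all tested miRNAs, 6.64% were called lower at low, 1.33% at middle and 4.32% at high dose. Without control 3-d replicate 1 the log2 fold change of let-7b-3p was 0.13 ± 0.14 (SE) at low, 0.15 ± 0.39 at middle and 0.06 ± 0.27 at high dose. That of let-7d-3p was -0.63 ± 0.18, 0.12 ± 0.32 and -0.31 ± 0.21. None of the 5 calls remained except let-7d-3p at low dose (adjusted p = 0.0483, edgeR).

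The levels show the same. The other 3-d controls had 538 and 586 RPM of let-7d-3p, the low dose livers 385, 261 and 316 RPM, the middle dose livers 562, 500 and 783 RPM and the high dose livers 498, 478 and 343 RPM. The low and high dose livers thus lay below both remaining controls, and the middle dose livers overlapped them. How many tested miRNAs lay below these 2 controls in the same way was not counted, and the change at high dose was not called. For let-7b-3p those controls had 51.5 and 48.7 RPM and the 9 treated livers 42.5 to 76.6 RPM, and the groups overlapped at every dose. Without the library let-7e-3p was also called lower at low dose (log2 fold change -0.82 ± 0.30, adjusted p = 0.0959, edgeR), with 5.39, 2.98 and 3.69 RPM against 7.47 and 8.58 RPM. In those fits of 3 against 2 libraries, 10.3% of tested miRNAs were called lower at low, 0.0% at middle and 1.66% at high dose.

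**Figure D3:**
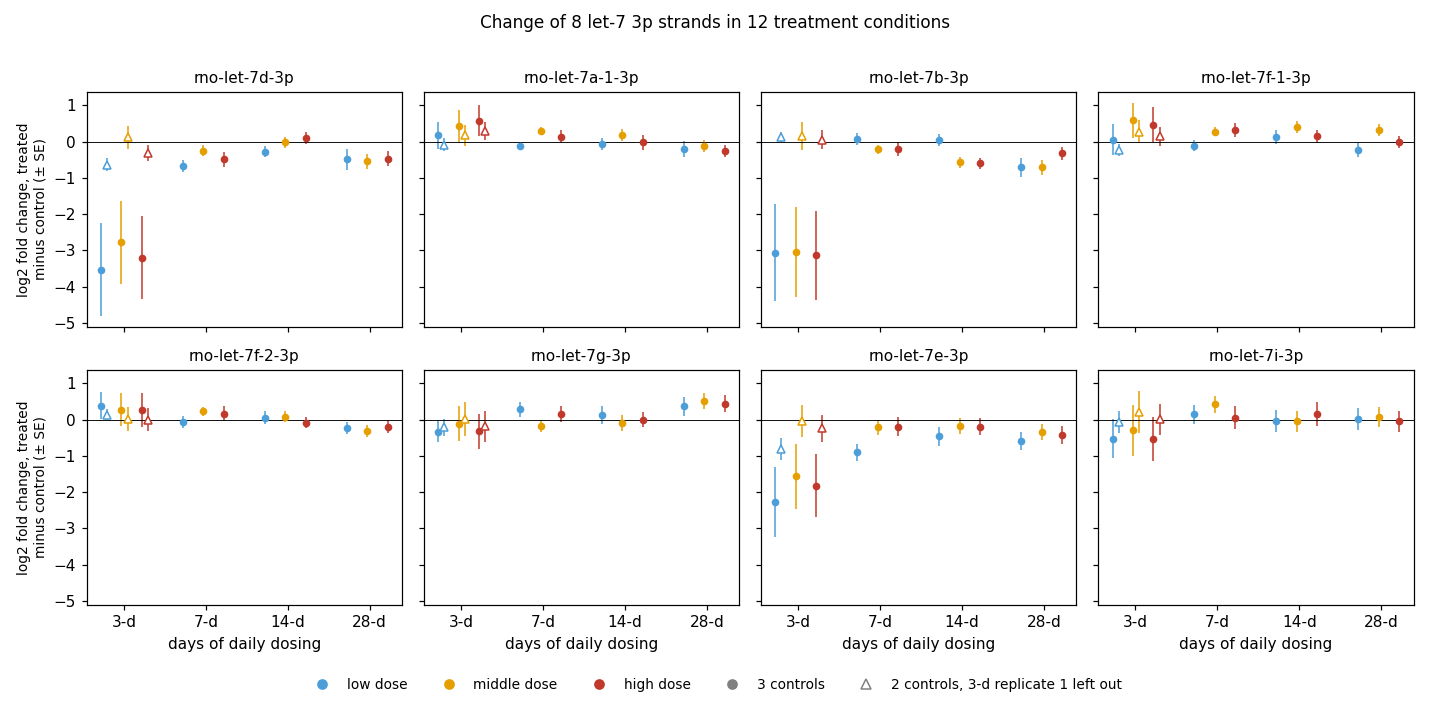
Log2 fold change (treated minus control, ± SE) of the 8 distinct 3p sequences in the 12 treatment conditions, from edgeR fits with all 3 controls (filled circles) and, at 3-d, with control 3-d replicate 1 left out (open triangles). For let-7d-3p, let-7b-3p and let-7e-3p the circles at 3-d lie between -1.57 and -3.53 with wide bars, and the triangles lie between -0.82 and 0.15.

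From 7-d on, where that library plays no part, 6 calls of 72 were made, all lower, and 0 higher. The share of all tested miRNAs called from 7-d on was not counted. Over the 12 conditions with all controls it was 5.98% lower and 12.1% higher. Whether the members differ from other miRNAs in the number or direction of these calls was not tested. At 7-d and low dose let-7d-3p was lower, with 350, 355 and 280 RPM against 689, 547 and 461 RPM in the controls. The groups did not overlap, and the log2 fold change was -0.67 ± 0.16 (adjusted p = 0.00907, edgeR). The change was -0.53 without control 7-d replicate 4, which is under the fold threshold. Also at 7-d and low dose let-7e-3p was lower, with 3.56, 3.43 and 2.87 RPM against 7.5, 7.21 and 5.20 RPM, again without overlap (log2 fold change -0.90 ± 0.23, adjusted p = 0.0129, edgeR). Of all tested miRNAs, 10.6% were called lower at low dose at 7-d. Levels below all controls were found there for 30.9% of tested miRNAs, let-7a-1-3p among them (72.2 to 89.9 against 93.8 to 98.5 RPM). At middle and high dose at 7-d no member was called, where 3.99% and 3.32% of tested miRNAs were called lower. The log2 fold changes of let-7d-3p there were -0.25 ± 0.15 and -0.49 ± 0.20. At middle dose the levels of 4 members lay above all controls, as did those of 30.9% of tested miRNAs. For let-7a-1-3p they were 119 to 133 RPM against 93.8 to 98.5 RPM (log2 fold change 0.30 ± 0.10, adjusted p = 0.0537, edgeR), and let-7f-1-3p, let-7f-2-3p and let-7i-3p had log2 fold changes of 0.24 to 0.43.

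At 14-d the 1 call among the members was let-7b-3p at high dose. The controls had 65.2, 64.6 and 57.8 RPM, the middle dose livers 47.5, 45.1 and 49.9 RPM and the high dose livers 46, 48.7 and 48.8 RPM, so that both doses lay below all controls, as they did for 9.3% of tested miRNAs at middle and 4.32% at high dose. The low dose livers, at 54.7, 57.6 and 63.4 RPM, overlapped the controls. The call at high dose (log2 fold change -0.60 ± 0.15, adjusted p = 0.0785, edgeR) was just past the fold threshold and was lost without high replicate 7 (-0.55) or control 14-d replicate 13 (-0.57). At middle dose the adjusted p was lower (0.0218, edgeR) and the log2 fold change of -0.56 ± 0.15 was short of 1.5-fold. Called lower at 14-d were 9.63%, 5.32% and 3.65% of tested miRNAs at low, middle and high dose.

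Other strands had levels apart from the 14-d controls without being called. At middle dose let-7f-1-3p had 40.6, 43 and 44 RPM against 32.7, 25.9 and 26.6 RPM (log2 fold change 0.41 ± 0.17, adjusted p = 0.0953, edgeR), and its high dose livers, at 35.01 to 40.4 RPM, also lay above the controls (0.16 ± 0.17). Also above all controls at middle dose were let-7a-1-3p, with 117 to 127 RPM against 87.4 to 103 RPM (0.18 ± 0.15), and let-7f-2-3p, with 33.4 to 34.2 RPM against 26.8 to 29.3 RPM (0.09 ± 0.16). These 3 members stood beside 34.2% of tested miRNAs whose middle dose levels were all above the controls, and let-7f-1-3p at high dose beside 25.9%. At low dose let-7d-3p had 342, 327 and 324 RPM against 435, 412 and 481 RPM (-0.28 ± 0.15, adjusted p = 0.177, edgeR) and let-7e-3p had 4.42, 4.84 and 3.31 RPM against 6.07, 6.02 and 6.86 RPM (-0.46 ± 0.26, adjusted p = 0.193, edgeR). Both lay below all controls, as did 27.6% of tested miRNAs.

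At 28-d let-7b-3p was called lower at low and middle dose. The controls had 50.8, 86.0 and 71.5 RPM, the low dose livers 42.6, 52.8 and 47.5 RPM, the middle dose livers 50.9, 56.5 and 45.7 RPM and the high dose livers 61.0, 53.4 and 59.5 RPM. The controls overlapped the treated livers in every dose group. The lowest control was inside the range of the low and of the middle dose livers and below all high dose livers. The log2 fold change was -0.71 ± 0.25 at low (adjusted p = 0.249) and -0.71 ± 0.20 at middle dose (adjusted p = 0.0205, edgeR), and both calls were lost without control 28-d replicate 17, which had 86.0 RPM (-0.57 at each dose). The low dose call was also lost without any 1 of 3 other libraries. At low dose let-7e-3p was called as well, with 4.68, 3.27 and 5.18 RPM against 5.57, 4.79 and 6.78 RPM (-0.60 ± 0.25, adjusted p = 0.330, edgeR). This call was lost without any 1 of 5 of its 6 libraries. Tested miRNAs called lower at 28-d were 8.64% at low, 12% at middle and 2.33% at high dose. Levels above all 28-d controls were found at middle dose for let-7f-1-3p (0.31 ± 0.17) and let-7g-3p (0.51 ± 0.22, adjusted p = 0.102, edgeR), beside 43.5% of tested miRNAs, and at high dose for let-7g-3p (0.44 ± 0.23), beside 28.2%.

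Over the 12 conditions with all controls, 11 of 96 combinations of member and condition were called lower and 0 higher by edgeR, and of all tested miRNAs 5.98% were called lower and 12.1% higher. Without control 3-d replicate 1 the members had 8 lower and 0 higher calls, beside 5.95% and 12.4% of all tested. With all controls, a further 4 combinations on the lower side and 3 on the higher side had an unadjusted p below 0.05 with a fold of less than 1.5. By the DESeq2 Wald test the count of higher calls was also 0. With an adjusted p below 0.05 in place of both thresholds, 4 combinations were lower, let-7d-3p and let-7e-3p at low dose at 7-d and let-7b-3p at middle dose at 14-d and 28-d, beside 5.68% of all tested. The median log2 fold change over the members was -0.10 and that over all tested miRNAs 0.06, or -0.04 and 0.05 without that library.

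To compare all treated with all control livers, a single edgeR fit with a term for each of the 16 groups was used, and the 12 differences from the time-matched controls were averaged. Called here means an adjusted p below 0.05. In the 48 libraries let-7b-3p (-1.02 ± 0.21), let-7d-3p (-1.05 ± 0.20) and let-7e-3p (-0.68 ± 0.17) were lower by edgeR, where 15.9% of tested miRNAs were. DESeq2 called let-7b-3p and let-7e-3p there and not let-7d-3p. In the 47 libraries without control 3-d replicate 1 all 3 strands were lower by less, and DESeq2 called all 3 as well. The log2 difference was -0.24 ± 0.08 for let-7b-3p (adjusted p = 0.0205), -0.33 ± 0.08 for let-7d-3p (adjusted p = 0.00190) and -0.38 ± 0.10 for let-7e-3p (adjusted p = 0.00193), and 16.6% of tested miRNAs were lower. The log2 fold change was below 0 in 7 of 12 conditions for let-7b-3p, in 10 of 12 for let-7d-3p and in 12 of 12 for let-7e-3p. The call of let-7b-3p was lost when control 3-d replicate 2 (-0.21, adjusted p = 0.0791) or control 28-d replicate 17 (-0.20, adjusted p = 0.056) was left out too, and those of let-7d-3p and let-7e-3p were not lost by leaving out any other library. The other 5 sequences had log2 differences of -0.01 to 0.12, none of them with an unadjusted p below 0.05.

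By time point and over all doses, the fit of 48 libraries gave 3 lower members at 3-d, let-7b-3p, let-7d-3p and let-7e-3p (13.6% of tested miRNAs were lower), and 0 at each later time point by edgeR or DESeq2, where 1 member (let-7g-3p at 28-d) had an unadjusted p below 0.05. The 3 members at 3-d were called by edgeR, and DESeq2 did not call let-7d-3p. Without control 3-d replicate 1 no member passed at 3-d by edgeR or DESeq2, none had an unadjusted p below 0.05, and 0.0% of tested miRNAs were lower. At 7-d let-7d-3p was then lower (-0.47 ± 0.16, adjusted p = 0.0349), beside 6.31% of tested miRNAs, and not without control 7-d replicate 4 (-0.32, adjusted p = 0.300) or any 1 of 4 other libraries of that time point. At 14-d no member passed by edgeR or DESeq2, with let-7b-3p at an unadjusted p below 0.05 (-0.37 ± 0.16, adjusted p = 0.112) and 5.98% of tested miRNAs lower. At 28-d let-7b-3p (-0.58 ± 0.16, adjusted p = 0.00724) and let-7d-3p (-0.49 ± 0.16, adjusted p = 0.0263) were lower, beside 8.97%. Both of these were lost without control 28-d replicate 17 (-0.45 and -0.48) or replicate 18 (-0.54 and -0.30).

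Whether the 3-d effect differed from the later ones was tested as a difference of effects. In the 48 libraries it was lower at 3-d for let-7b-3p, let-7d-3p and let-7e-3p by edgeR, as it was for 12% of tested miRNAs. The difference of let-7d-3p was not called by DESeq2. In the 47 libraries no member passed by edgeR or DESeq2, 1 (let-7b-3p, 0.47 ± 0.22, adjusted p = 0.315) had an unadjusted p below 0.05 with the sign turned, and 0.332% of tested miRNAs passed in either direction.

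Between high and low dose 2 of 8 members were called in the 47 libraries, the AU-rich let-7f-1-3p and the scarce let-7e-3p. That is near the 25.9% of all tested miRNAs called higher in this contrast. Between middle and low dose 4 of 8 were called, beside 28.9%. In the low dose livers let-7f-1-3p had 23.7, 27.5 and 29 RPM at 3-d, 25.5, 32.6 and 26.8 RPM at 7-d, 28.0, 27 and 29.1 RPM at 14-d and 33.1, 21.7 and 33.6 RPM at 28-d. In the middle dose livers it had 40.8, 42.8 and 47.3 RPM at 3-d, 42.4, 43.9 and 42.9 RPM at 7-d, 40.6, 43 and 44 RPM at 14-d and 44.1, 43.4 and 47.2 RPM at 28-d. Every middle dose liver thus lay above every low dose liver of all time points, and the 11 controls, at 24.8 to 36 RPM, lay below the middle dose livers too. The high dose livers had 28.0 to 49.1 RPM and overlapped both. How many tested miRNAs were apart in this way over all time points was not counted. Middle dose levels above all controls of the time point were found for 30.9% of tested miRNAs at 7-d, 34.2% at 14-d and 43.5% at 28-d. With library size alone, as in RPM, the median middle minus low difference of all tested miRNAs was 0.22 on the log2 scale. After upper quartile scaling it was 0.02.

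The difference between the high and the low dose effect, averaged over the 4 time points in the 47 libraries, was 0.27 ± 0.07 on the log2 scale for let-7f-1-3p (adjusted p = 0.00354) and 0.43 ± 0.12 for let-7e-3p (adjusted p = 0.00433), both higher at the high dose, as were 25.9% of tested miRNAs. With all 48 libraries let-7f-1-3p alone passed (0.27 ± 0.10, adjusted p = 0.0309), beside 19.6% of tested miRNAs, and let-7e-3p had 0.43 ± 0.20 (adjusted p = 0.102). The difference between the middle and the low dose effect, a contrast added after the data were seen, was 0.43 ± 0.07 for let-7f-1-3p (adjusted p = 7.17e-06), 0.50 ± 0.12 for let-7e-3p (adjusted p = 0.000539), 0.34 ± 0.10 for let-7d-3p (adjusted p = 0.00361) and 0.25 ± 0.08 for let-7a-1-3p (adjusted p = 0.00951) in the 47 libraries, beside 28.9% of tested miRNAs. With all 48 libraries let-7f-1-3p (adjusted p = 0.000414), let-7a-1-3p (adjusted p = 0.0343) and let-7e-3p (adjusted p = 0.0411) passed, beside 23.9%, and let-7d-3p, at 0.34 ± 0.26, did not (adjusted p = 0.292, edgeR). For let-7b-3p in the 47 libraries it was -0.22 ± 0.10 (adjusted p = 0.0553). Both contrasts share the low dose livers. The low dose libraries of the time points before 28-d carry the label numbers 40 to 48, and the dose and whatever these numbers stand for cannot be told apart in those groups.

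The ratio of passenger to guide reads within a library needs no scaling between libraries, and was used to ask whether the passenger changed apart from its guide. The reads of each 3p strand were divided by those of the 5p strand with the same letter, with 0.5 reads added to each. The guides let-7a-5p and let-7f-5p come from more than 1 hairpin, so that for let-7a-1, let-7f-1 and let-7f-2 the ratio is not that of a single duplex. The reads of let-7a-1-3p may also come from let-7c-2, whose guide, let-7c-5p, is not in the ratio. In the 47 libraries the passenger made up a median of 50.9% of the guide reads for let-7d (20.4 to 90.7%), 7.08% for let-7b (3.36 to 20.9%), 1.90% for let-7e (0.909 to 3.03%) and 1.64% for let-7a-1 (0.667 to 2.83%). For let-7i it was 0.344%, for let-7f-1 0.190%, for let-7f-2 0.161% and for let-7g 0.138%. In control 3-d replicate 1 the let-7d passenger reached 1719% of its guide and the let-7b passenger 122%, while the let-7f-1 passenger, at 0.154%, was inside the range of the other libraries.

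Over all treated rats the ratio was lower for let-7d and let-7b. The tests covered let-7 hairpins only, so that no share over other hairpins stands beside them. In the 47 libraries the log2 ratio of let-7b-3p averaged -3.42 ± 0.53 (SD, n = 11) in the controls and -3.94 ± 0.33 (SD, n = 36) in the treated livers. The difference, averaged over time points, was -0.48 (two-sided permutation test within time points, 100000 resamples, p = 0.00012, adjusted over the 8 sequences 0.00096). For let-7d-3p the averages were -0.78 ± 0.33 and -1.24 ± 0.54, and the difference was -0.46 (permutation p = 0.0104, adjusted 0.0418). That call was lost without any 1 of 12 other libraries. The difference for let-7e-3p was -0.32 (permutation p = 0.0523, adjusted 0.140), and those of the others were -0.16 to 0.22 with adjusted p-values of 0.289 or more. With all 48 libraries the differences of let-7b-3p (-0.83, p = 1e-05, the smallest these resamples can give), let-7d-3p (-0.87, p = 0.00065) and let-7e-3p (-0.63, p = 0.0069) all passed (permutation tests, adjusted p = 8e-05, 0.0026 and 0.0184).

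By dose, the ratio of let-7d before 28-d was below all controls in the low dose livers. It was 22.2 to 34.9% at 3-d, 20.4 to 27.7% at 7-d and 25 to 26.1% at 14-d in the low dose livers, against 56.4 to 56.9% (2 libraries), 51.2 to 64.6% and 47.6 to 52.9% in the controls. At 28-d the low dose livers had 22.1 to 65.6% and overlapped the controls, at 44.4 to 90.7%. The high dose livers lay below all controls at 3-d (38.1 to 42.7%) and at 28-d (37.6 to 42.3%) and overlapped them at 7-d (26.9 to 54.3%) and 14-d (50.9 to 65.4%). The middle dose livers, at 43.3 to 67.3% over all time points, overlapped the controls at each.

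Other let-7 hairpins had low ratios at the low dose too. For let-7a-1 the low dose livers had 0.717 to 1.07% at 3-d, 0.667 to 0.813% at 7-d and 0.710 to 0.917% at 14-d, below the controls of the same time point, at 1.15 to 1.55%, 1.43 to 1.65% and 1.51 to 1.89%. For let-7e they lay below the controls at all 4 time points, with 0.909 to 1.02% against 1.98 to 2.86% at 7-d and 1.10 to 1.67% against 1.77 to 1.84% at 28-d. For let-7b they did so from 7-d on, with 4.04 to 5.68% against 7.08 to 9.81% at 7-d and 5.26 to 7.19% against 10.2 to 20.9% at 28-d, where the middle and high dose livers (7.88 to 9.18% and 7.08 to 9.30%) were below the controls as well. At the middle dose the ratio of let-7a-1 was above all controls at 7-d (2.21 to 2.32%) and 14-d (2.03 to 2.35%). No test of the ratio by dose was made, and no share of other hairpins with ratios apart from the controls was counted. The low dose libraries before 28-d are those with the label numbers 40 to 48. Their dose and whatever these numbers stand for cannot be told apart.

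**Figure D4:**
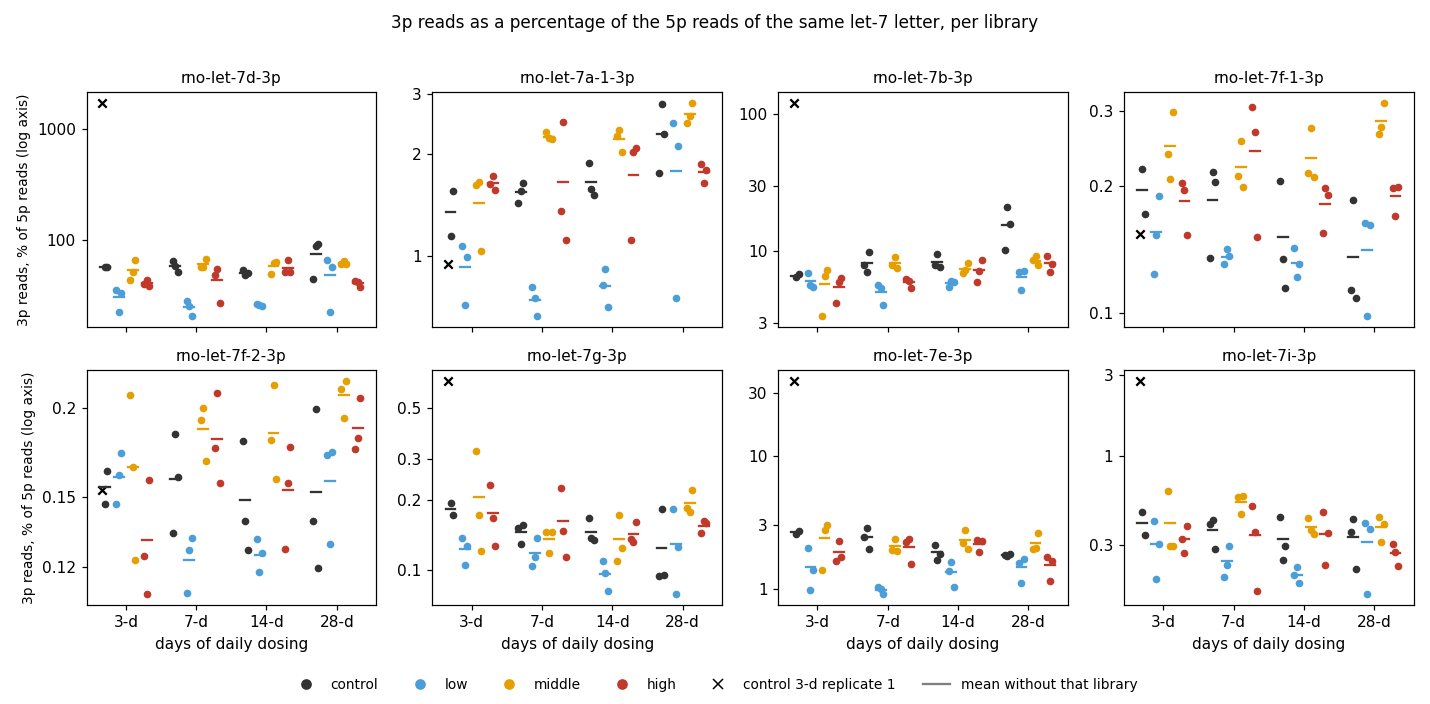
Reads of each let-7 3p strand as a percentage of the 5p reads with the same letter (log axis) in every library, by days of dosing and dose, with a short line at each group's mean without control 3-d replicate 1 (cross). For let-7d the low dose points lie at 20.4 to 34.9% before 28-d, below all controls, while the cross lies at 1719%.

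The guide strands were read beside their passengers. All 8 let-7 5p strands and miR-98-5p, which has the same seed, were tested in 12 conditions, which gave 2 lower calls and 11 higher calls in 108, or 1.85% and 10.2%, against 5.98% and 12.1% of all tested miRNAs. The higher calls were 5 at low dose at 7-d (18.3% of all tested miRNAs were called higher there), 5 at low dose at 14-d (22.9%) and 1 at low dose at 3-d (9.97%, and likewise 1 beside 13.3% without control 3-d replicate 1), and both lower calls were at middle dose at 28-d. In the 47 libraries and over all treated rats, let-7b-5p (0.25 ± 0.10, adjusted p = 0.0334), let-7i-5p (0.22 ± 0.09, adjusted p = 0.0348) and miR-98-5p (0.29 ± 0.11, adjusted p = 0.0229) were higher by edgeR, 3 of 9 beside 29.2% of tested miRNAs, while let-7d-5p had 0.15 ± 0.08 (adjusted p = 0.119) and let-7e-5p had -0.07 ± 0.07 (adjusted p = 0.408). For let-7b the guide and the passenger were thus both called, in opposite directions.

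The other miRNAs of the clusters that hold let-7 hairpins, miR-99a, miR-99b, miR-100, miR-125a and miR-125b, were listed with miR-98-3p, and 10 of these 12 names were tested. They had 6 lower and 16 higher calls in 120, or 5% and 13.3%, near the 5.98% and 12.1% of all tested miRNAs. The passenger strands of other hairpins, the strand with fewer reads where both were tested, were 90. Their calls were 5.93% lower and 11.1% higher in 1080 combinations, which is also near the whole. The 5 tested miRNAs whose 16 group means were most like the summed level of the passenger strands, which is mostly let-7d-3p, were miR-340-3p (Spearman's rho = 0.906), miR-328a-3p (0.900), miR-30c-5p (0.894), miR-423-5p (0.888) and miR-429 (0.859), as a description over 16 group means that share normalization.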

How the data were processed

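Liver miRNA-seq counts of 48 libraries were used. The authors removed adaptor sequence, selected reads 18 to 25 bases long, ran FastQC, used miRDeep2 to map the reads against rn5 and miRBase release 21, and deposited raw counts per mature miRNA and precursor, without normalization. A mature miRNA listed for several precursors (71 names) was taken from its precursor of highest count. Library totals were 293331 to 14906217, with a median of 10237542, so that 3 reads correspond to 10.2 RPM in the shallowest library.

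The filter was 5 RPM or more in 3 or more libraries and left 301 of 664 detected miRNAs. They were tested by the quasi-likelihood F-test of edgeR 4.0.16 (R 4.3.3) after scaling by the upper quartile. Each of the 12 conditions was fitted with the controls of its time point, and contrasts over several groups came from 1 joint fit. Benjamini-Hochberg adjustment was over the 301 miRNAs. Strand ratios were tested by permutation within time points (scipy 1.17.1 and numpy 2.4.6 in Python 3.11.15). With 3 libraries against 3 an exact permutation test cannot go below p = 0.1 and was not used. DESeq2 1.42.0, other normalizations, filters, control sets and call rules, and leaving out each library, were the alternatives. The fits were tested on simulated data. The members and lists were chosen with earlier results of these data known. The miRNAs named are all members with every called condition, their guides, related miRNAs as ranges, and the 5 with the highest rho to the summed level of the members.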

Additional observations from a re-analysis of the deposited data

Results flagged for a closer look

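The effect of treatment differed between time points for let-7b-3p, let-7d-3p and let-7e-3p in the edgeR fit of 48 libraries, and DESeq2 did not call let-7d-3p. The 3-d effect minus the mean of the later effects was -2.67 ± 0.50 (SE, log2) for let-7b-3p (adjusted p = 0.000366), -2.82 ± 0.47 for let-7d-3p (adjusted p = 0.000172) and -1.18 ± 0.43 for let-7e-3p (adjusted p = 0.0438, edgeR). Without control 3-d replicate 1 the values were 0.47 ± 0.22, 0.07 ± 0.21 and 0.02 ± 0.25, none of them called.

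The effect differed between doses for let-7f-1-3p, with a high minus low dose difference of 0.27 ± 0.10 in 48 libraries (adjusted p = 0.0309) and of 0.27 ± 0.07 in 47 libraries (adjusted p = 0.00354). The difference for let-7e-3p was 0.43 ± 0.12 in 47 libraries (adjusted p = 0.00433). The high dose effect was above the low dose effect at 4 of 4 time points for both strands, and also for let-7d-3p. The contrast is the mean of these differences, so that their direction adds no separate evidence. How many tested miRNAs had this direction at every time point was not counted. Called higher in this contrast were 19.6% of tested miRNAs in 48 libraries and 25.9% in 47.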

How the results depend on the processing

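Settings with control 3-d replicate 1 left out, the middle minus low dose contrast and the fits that go with them were chosen after seeing the data, and the cause of a change was not tested. The counts below stand without the share of all tested miRNAs called in the same setting. They thus describe how the calls of the members move with a setting, and not whether the members differ from other miRNAs. The 11 lower calls in the 12 conditions became 19 without a filter, 7 with at least 5 RPM in every library, 0 with all 12 controls pooled, 5 with 11 controls pooled, and 4 with the adjusted p as call rule. The 5 lower calls at 3-d became 3 with DESeq2 size factors, 8 without a filter, 0 with pooled controls, 9 in a single fit of 48 libraries and 0 by adjusted p, and 2 to 9 when a library was left out. The DESeq2 Wald test gave no p for 2 of those 24 combinations. Without control 3-d replicate 1, 2 were called, and 1 by DESeq2. The 0 higher calls became 2 with library size alone and 0 to 2 with a library left out (2 without control 28-d replicate 17). The 3 calls over all doses at 3-d, and likewise the 3 differences between the 3-d and later effects, ranged from 0 (without control 3-d replicate 1) to 4 with a library left out, the 0 calls at 7-d from 0 to 1 and the 0 at 28-d from 0 to 2. In the 47 libraries the count at 7-d was 1, with 2 under DESeq2 size factors, 0 under library size alone and 0 to 1 without a further library, the count at 14-d 0 to 1, and the count at 28-d 2, with 1 under library size alone and 0 to 3 without a further library. Members that differed between high and low dose were 1 in 48 libraries (3 under library size alone, 0 without a filter, 0 to 2 with a library left out) and 2 in 47 (4 under library size alone). Between middle and low dose they were 3 (1 without a filter, 1 to 4 with a library left out). Library size alone moved the median of all tested miRNAs in these dose contrasts to 0.23 and 0.22, against 0.09 and 0.02. Signs turned for let-7b-3p at middle (-3.58 to 0.15) and high dose (-3.68 to 0.060) and let-7d-3p at middle dose (-3.29 to 0.12) at 3-d when a library was left out. The strand ratio difference of let-7d-3p in 47 libraries kept its sign (-0.55 to -0.42) and lost its call 12 times, that of let-7e-3p in 48 ranged from -0.80 to -0.32, and that of let-7g-3p in 47 from -0.086 to 0.035. No paired analysis was possible because the groups share no replicate numbers.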

Other observations

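The ratio of let-7d-3p to let-7a-1-3p reads within a library needs no scaling. The reads of let-7a-1-3p cannot be assigned to the hairpin beside let-7d on chromosome 17 or to that of let-7c-2 on chromosome 7, so that the ratio is not shown to be that of neighbouring hairpins. Control 3-d replicate 1 was left out. At 3-d the ratio was 5.47 to 6.79 in the controls, and the low (3.80 to 4.62) and high dose livers (3.58 to 4.47) lay below them, while the middle dose livers, at 4.05 to 9.68, overlapped them. At 7-d it was 4.92 to 7.26 in the controls, above the low (3.88 to 4.21) and middle dose livers (3.87 to 4.34) and overlapping the high dose livers (3.26 to 5.13). At 14-d every dose group overlapped the controls, at 4.20 to 4.95. At 28-d the controls had 3.28 to 4.60 and overlapped the low (3.16 to 3.57) and high dose livers (3.32 to 3.88), and the middle dose livers, at 3.02 to 3.28, were just short of overlapping them. No test of this ratio was made, and it was chosen after values were seen.

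Across the 270 tested miRNAs with a sequence, Spearman's rho between the share of G and C bases and the log2 fold change was -0.517, -0.498 and -0.586 at low, middle and high dose at 3-d, and -0.205, 0.062 and -0.269 without control 3-d replicate 1. From 7-d to 28-d it was between -0.214 and 0.085. These are descriptions across miRNAs, which are not independent replicates.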
